A study of Mus musculus with 30 samples.

Results

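Of the 155178 chromatin peaks counted on the mouse autosomes, 1234 (0.795%) were open only in definitive endoderm, the embryonic layer that gives rise to gut, liver, pancreas and lung. They were chosen from a deposited table of ATAC-seq reads per peak, in which the tagging enzyme Tn5 cuts accessible DNA. Each count was divided by its library's sum over all 158917 peaks of the table and multiplied by 1000000 to give CPM. A peak was kept when it reached at least 2 CPM in each of the 4 endoderm (DE) libraries and at most 0.5 CPM in each of the 4 libraries of epiblast stem cells (EpiSCs). EpiSCs are pluripotent and resemble the epiblast shortly before gastrulation. The ATAC-seq difference between both cell types was therefore set by the choice and is described without a test, while RNA was not used in it.

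All of these libraries came from the C57BL/6 strain at passage p5-p10, with no genetic change named. EpiSCs were cultured on feeder cells in N2B27-based medium that contained Fgf2, ActivinA and NVP-TNKS656, which inhibits Wnt signalling. DE was made from EpiSCs in chemically defined medium, with CHIR99201 and ActivinA for 16 h and with ActivinA and LDN193189 for 24 h. The labels give 46 h for the whole differentiation. Cells positive for CXCR4 were then enriched with magnetic beads (MACS), so that the DE groups hold sorted cells and the EpiSC groups do not. RNA-seq had 4 DE libraries (replicates 2, 4, 44 and 51) and 5 EpiSC libraries (replicates 1, 2, 4, 44 and 51), and ATAC-seq had DE 2, 4, 44 and 51 and EpiSC 1, 4, 44 and 51. The labels call these biological replicates without naming cultures or animals, so the p-values measure the spread between these libraries, which may be technical. PWK/PhJ and DBA/2J EpiSCs (2 libraries and 1 library of ATAC-seq) are used once, at the end.

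Accessible regions away from gene starts are often enhancers, stretches of DNA that transcription factors bind and that can act on genes at a distance. During endoderm formation, Nodal signalling, mimicked in culture by Activin, turns on a set of transcription factors that includes the GATA, FOXA and SOX17 proteins. FOXA and GATA proteins are known to bind closed chromatin and to open it. A peak is named here by the nearest protein-coding gene, and the nearest gene need not be the one a region acts on.

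The labels fitted the cells by RNA. The summed RNA level of 19 endoderm transcription factors ran from 5190 to 6191 CPM in DE and from 272 to 603 CPM in EpiSCs. For 15 pluripotency genes the sums were 2978 to 3845 CPM in DE and 4811 to 6522 CPM in EpiSCs, and Pou5f1, a defining factor of pluripotent cells, had 12.9 ± 16.7 CPM (SD, n = 4) in DE against 1127 ± 175 (SD, n = 5) in EpiSCs. By the RNA test below, 11 of the 15 were lower in DE and 3 higher, against 30.6% and 31.5% of all genes tested. Otx2, which rose, is in both lists. In such bulk samples fewer cells of a type and less RNA per cell cannot be told apart. Total counts ran from 3751526 (DE 51) to 9311622 (EpiSC 4) for ATAC-seq and from 22829536 to 66563933 for RNA-seq. Mitochondrial peaks took 4.39% to 13.6% of the ATAC-seq counts. Among the marker lists summed, feeder fibroblast genes differed most within a group, with a level of 95.9 to 279 CPM in DE and 87.7 to 2760 CPM in EpiSCs, highest in EpiSC 51.

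Few of the 1234 peaks reached a promoter, and those that share most bases with one are shown because their place beside a gene start is exact. RefSeq promoter windows of build GRCm38.p6 (250 bases before to 50 bases after a gene start) shared bases with 7 of the 1234 peaks (0.567%), against 7.73% of all autosomal peaks and 0.829% of the 1207 peaks open only in EpiSCs. In 4 of the 7 windows at least 100 bases were shared. Their 250 bases before the start follow, 5′ to 3′ on the strand of the gene, with the bases inside the peak in capitals.
Krt42, chr11:100269952-100270201, minus strand: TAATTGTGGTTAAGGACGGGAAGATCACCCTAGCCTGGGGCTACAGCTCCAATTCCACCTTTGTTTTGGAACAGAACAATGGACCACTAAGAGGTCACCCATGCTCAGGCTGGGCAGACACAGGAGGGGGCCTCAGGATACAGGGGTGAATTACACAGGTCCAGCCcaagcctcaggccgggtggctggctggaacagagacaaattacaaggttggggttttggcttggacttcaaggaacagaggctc
Vmn2r26, chr6:124024508-124024757, plus strand: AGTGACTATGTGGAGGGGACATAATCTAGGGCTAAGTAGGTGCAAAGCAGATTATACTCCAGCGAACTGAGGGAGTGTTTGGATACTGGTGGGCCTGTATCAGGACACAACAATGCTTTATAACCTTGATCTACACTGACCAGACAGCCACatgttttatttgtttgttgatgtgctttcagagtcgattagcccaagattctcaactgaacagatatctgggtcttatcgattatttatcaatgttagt
Gm41532, chr17:15080496-15080745, plus strand: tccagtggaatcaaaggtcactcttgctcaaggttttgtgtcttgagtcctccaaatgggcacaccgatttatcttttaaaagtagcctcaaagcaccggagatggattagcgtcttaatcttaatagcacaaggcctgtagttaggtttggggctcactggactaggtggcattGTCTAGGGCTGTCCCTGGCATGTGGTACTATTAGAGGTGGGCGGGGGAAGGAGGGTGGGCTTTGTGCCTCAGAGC
Krt73, chr15:101802361-101802610, minus strand: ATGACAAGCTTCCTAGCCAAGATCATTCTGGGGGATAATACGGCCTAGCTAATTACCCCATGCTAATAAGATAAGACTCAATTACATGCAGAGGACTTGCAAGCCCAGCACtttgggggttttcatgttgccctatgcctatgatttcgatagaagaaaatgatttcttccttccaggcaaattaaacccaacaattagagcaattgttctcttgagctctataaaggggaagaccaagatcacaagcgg

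Krt42 and Krt73 encode keratins, Vmn2r26 a pheromone receptor, and Gm41532 is a gene model without a known role. The peak before Krt42 (chr11:100270036-100270219, mm10) had 7.12, 6.50, 7.95 and 4.80 CPM in DE 2, 4, 44 and 51. Krt42 RNA was low in all libraries, with 2.80, 1.28, 2.54 and 0.394 CPM in DE and 0.114 to 0.217 CPM in EpiSCs. All DE libraries lay above all EpiSC libraries, and the log2 change was 3.36 ± 0.63 (SE; edgeR quasi-likelihood test, Benjamini-Hochberg adjusted p = 0.000983). The peak before Vmn2r26 (chr6:124024408-124024658) had 5.62, 5.12, 7.19 and 7.20 CPM, and that before Krt73 (chr15:101802500-101802712) had 5.43, 2.21, 6.81 and 2.93 CPM. Vmn2r26 RNA averaged 0.171 CPM in DE and 0.157 in EpiSCs and Krt73 had no RNA count in either, so neither gene entered the test. The other 3 windows belong to Hpn, a (nonagouti) and Gm33482. Hpn, a membrane serine protease, had a log2 change of 0.15 ± 1.07 (SE, adjusted p = 0.908), with groups that overlap. Its sign turned without EpiSC 44 (-0.023) or DE 2 (-1.03).

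Motifs of 12 kinds were searched on both strands of these windows as exact letters, N being any base, and none of them holds another whole. In the shared part, the SOX motif CATTGT was found before Krt42 and Vmn2r26, and the motif AGATAA of GATA factors was found before Krt73. The NF-Y motif CCAAT was found before Krt42, and the motif GGGCGG of SP and KLF factors was found in Gm41532. Over the 300 bases, CATTGT was in 3 of 7 windows against 12.6% of the 32851 windows of the RefSeq table, and AGATAA was in 2 of 7 against 11.2%. TGTTTAC (FOX) was in 0 of 7 against 3.65%, and GGTGTGA (T-box) in 0 of 7 against 3.98%. CCAAT was in 2 of 7 against 37.4%, and GGGCGG in 1 of 7 against 35.7%. TAATCC (OTX and GSC) was in 1 of 7 against 7.06%, and ATCAAAG (TCF and LEF) in 1 of 7 against 3.73%. None of the 7 held the POU motif ATGCAAA (4.63% of all windows), the TEAD motif GGAATG (14.7%), the AP-1 motif TGANTCA (7.81%) or the HNF1 motif GTTAAT (7.10%). These are matches of letters in a few windows and are not measured binding.

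In the DE libraries most of the 1234 peaks were small. The mean over DE ran from 2.22 to 14.4 CPM with a median of 4.09, and 10 peaks had a mean of at least 10 CPM. Median levels were 3.93 CPM in DE 2, 3.87 in DE 4, 4.67 in DE 44 and 3.47 in DE 51. DE 44 was the highest of the 4 libraries for 43.1% of the peaks, and DE 51, the shallowest library, was the lowest for 38.4%. Within a peak the highest DE library had a median of 1.86 times the lowest, and the coefficient of variation had a median of 27.4%. The counts behind these levels are low, with a median of 100 reads summed over DE and 5 summed over EpiSCs.

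**Figure D1:**
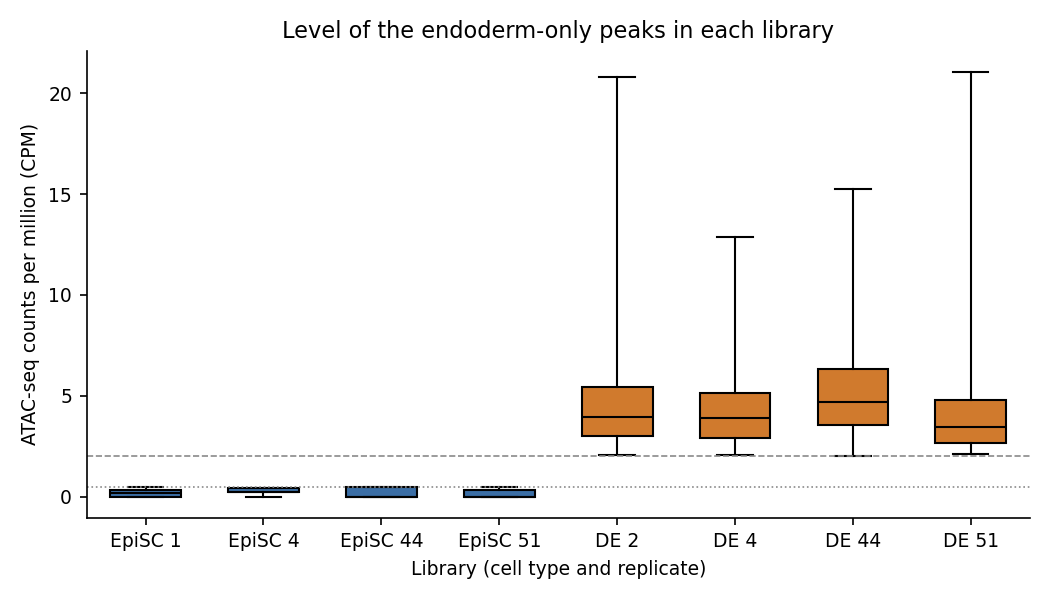
ATAC-seq level (CPM, linear axis) of the 1234 endoderm-only peaks in each library; boxes show the quartiles, the line the median and the whiskers the lowest and highest peak. The dashed and dotted lines are the limits of 2 and 0.5 CPM that chose the peaks; EpiSC medians lie between 0 and 0.215 CPM and DE medians between 3.47 and 4.67 CPM.

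Open only in endoderm meant low in EpiSCs, and seldom without a read in all 4 EpiSC libraries at once. No read fell on 41.7% of the peaks in EpiSC 1, 15.1% in EpiSC 4, 58.8% in EpiSC 44 and 58.2% in EpiSC 51. Only 32 peaks (2.59%) had no read in any EpiSC library. The limit of 0.5 CPM equals 2.00 reads in EpiSC 44 and 4.66 reads in EpiSC 4, the deepest library. It therefore asked more of some libraries than of others, and without EpiSC 4 the same limits gave 3290 peaks. Intervals and floors of such counts cover counting error only.

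The limits cut through a continuous range. The 4 members with the lowest mean lay at 2.22 to 2.26 CPM, near Hibadh, Slc7a1, Plxna2 and Ssx2ip. Of the nearest peaks outside, those near Zkscan6, Adamts7 and Gmpr failed because DE 4 had 14 reads, or 1.94 CPM. Their means over DE were 2.45, 3.19 and 3.26 CPM, within the range of the members.

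The highest peak of the set lay inside a collagen gene. At chr8:11308622-11308924, within Col4a1 and 4.03 kb from the start of Col4a2, DE 2, 4, 44 and 51 had 16.5, 9.41, 10.6 and 21.1 CPM, against 0 to 0.311 CPM in EpiSCs. Col4a1 and Col4a2 encode the paired chains of basement membrane collagen and start next to each other. Inside Pbld2, the peak at chr10:63055250-63055536 had 13.9, 11.3, 15.3 and 14.9 CPM. These peaks were high in all DE libraries. Another, at chr6:92817711-92818019, lies inside Adamts9, a secreted protease, and had 16.1, 9.41, 11.0 and 11.995 CPM. Inside Auts2 the peak at chr5:131614304-131614619 differed most between libraries among these highest peaks, with 20.8, 10.2, 11.99 and 4.80 CPM. Inside Ubac1 the peak at chr2:26013004-26013253 had 9.18, 12.04, 12.1 and 11.7 CPM.

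The 1234 peaks were about as wide as other peaks and lay farther from gene starts than autosomal peaks as a whole. Their width had a median of 155 bases (68 to 369), against 143 for all autosomal peaks and 144 for the EpiSC-only peaks. The latter were chosen by the same limits with the cell types exchanged. The distance to the nearest protein-coding gene start had a median of 40.6 kb, against 25.4 kb for all peaks and 49.8 kb for EpiSC-only peaks. For 25.4% of the 1234 peaks the nearest gene had no start in the reference tables and was placed by its closer end. Under 1 kb from a start or such an end lay 15 peaks (1.22%, exact 95% binomial interval 0.682% to 2.00%), against 13.8% of all peaks and 0.829% of EpiSC-only peaks. Those by C4b, Syngr3 and Wdr36 were measured to an end. Between 10 and 50 kb lay 37.3%, and beyond 100 kb 27.5%, against 21.8% of all peaks and 34.5% of EpiSC-only peaks. Inside a protein-coding gene lay 620 (50.2%), against 49.7% of all peaks and 41.3% of EpiSC-only peaks. Whether these lie in exons or introns was not analysed here.

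**Figure D2:**
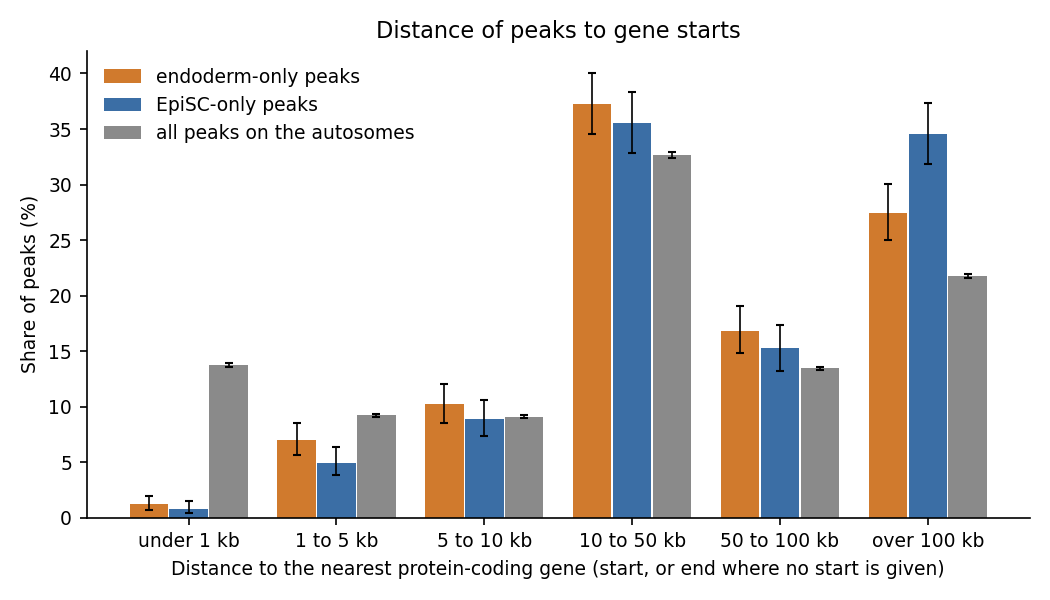
Share of peaks (%) by distance to the nearest protein-coding gene, for endoderm-only, EpiSC-only and all autosomal peaks; error bars are exact 95% binomial intervals and cover counting error only. Under 1 kb the shares are 1.22%, 0.829% and 13.8%, and both chosen sets sit mostly beyond 10 kb.

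By chromosome, the set made up 5.11 (chromosome 15) to 11.0 (chromosome 8) of every 1000 peaks. Chromosome 8 held 92 of the 1234 peaks. The next highest share was 9.07 per 1000 on chromosome 13. EpiSC-only peaks had 5.98 per 1000 on chromosome 8, below most other autosomes. In DE 51, peaks of the set on chromosome 8 had a median of 4.00 CPM against 3.47 elsewhere, and in DE 2, 4 and 44 the medians were 4.12 and 3.93, 4.01 and 3.87, and 4.92 and 4.67. With all libraries the share was 11.0 per 1000 on chromosome 8 and 7.78 on the other autosomes. When the limits were applied without DE 51, these shares were 13.5 and 11.7. They were 13.6 and 9.35 without DE 2, 13.5 and 9.22 without DE 4, and 11.2 and 8.24 without DE 44. Copy number was not tested.

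**Figure D3:**
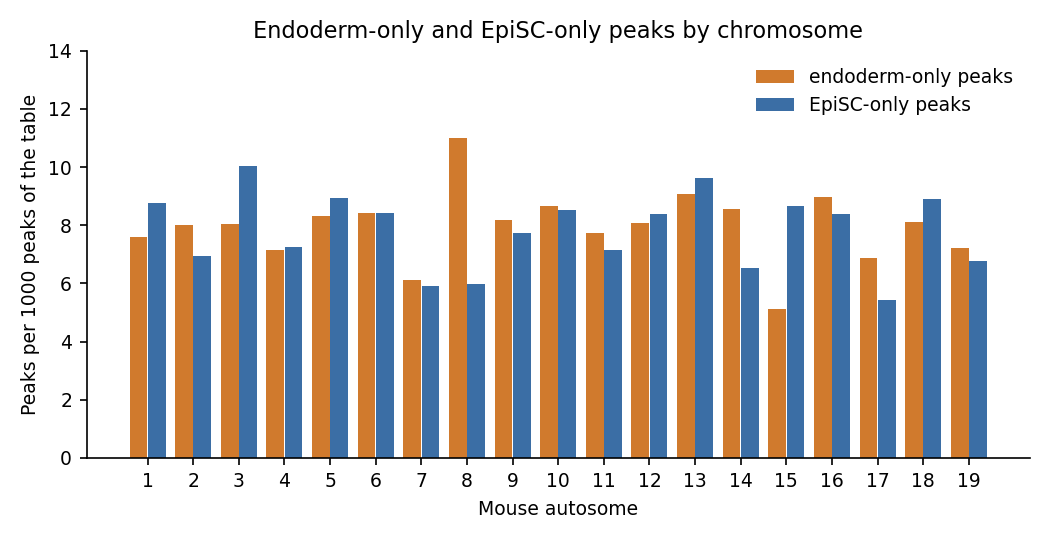
Endoderm-only and EpiSC-only peaks per 1000 peaks of the table on each mouse autosome. Chromosome 8 stands at 11.0 for endoderm-only and 5.98 for EpiSC-only peaks; the other endoderm-only values lie between 5.11 and 9.07.

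Most of the peaks stood alone. Within 10 kb of another member lay 45 peaks in 22 groups (3.65%), and within 50 kb lay 114 peaks in 55 groups (9.24%), against 8.04% of EpiSC-only peaks. Groups of 3 within 50 kb occurred 4 times. They lay inside Slc36a1 (chr11:55208518-55219026), an amino acid transporter, inside and beside Ermard (chr17:15080671-15122713), inside Lpar1 (chr4:58517349-58547944), a receptor for lysophosphatidic acid, and inside Gadl1 (chr9:115910515-115931831), an amino acid decarboxylase. One of the Ermard peaks (chr17:15080671-15080803) is the peak that spans the start of Gm41532 shown above. It lies 9.31 kb from the closer end of Ermard. In Slc36a1 the 3 peaks had means over DE of 3.68, 9.64 and 9.54 CPM. Slc36a1 RNA went the other way, at 2.49, 3.85, 0.508 and 1.56 CPM in DE against 15.2 to 21.4 CPM in EpiSCs. Those groups did not overlap, and the log2 change was -3.14 ± 0.48 (SE, adjusted p = 0.000272).

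RNA of the neighbouring genes, which the choice of peaks did not use, showed no lean toward endoderm over the whole set. The 1234 peaks had 1089 different nearest genes, and 844 of them passed the filter on low counts. Of these, 260 (30.8%) were higher in DE and 264 (31.3%) were lower (edgeR quasi-likelihood test, adjusted p under 0.05). Of all 14085 genes tested, 31.5% were higher and 30.6% lower, so the neighbours' shares lie near the background. The median log2 change was -0.13, against -0.01 for all genes. For genes nearest to EpiSC-only peaks it was -0.44, with 185 of 799 (23.2%) higher and 310 (38.8%) lower. Nearest to both kinds of peak were 181 genes.

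Where the peak lay close to a gene start, or to the closer end where no start is given, the shares differed. Of the genes whose nearest peak lay within 10 kb, 171 were tested, 66 (38.6%) were higher and 41 (24.0%) lower. Within 5 kb, a limit chosen after seeing the data, 74 of 100 genes were tested, 34 (45.9%) were higher and 14 (18.9%) lower. The median log2 change of these 74 was 0.43. Over 100 kb away, 29.0% of 224 tested genes were higher and 31.7% lower. When peaks were assigned to the nearest gene body, 240 of 858 tested genes (28.0%) were higher and 286 (33.3%) lower. Of 447 tested genes that hold a peak, 117 (26.2%) were higher and 137 (30.6%) lower. Over all genes tested the shares were 31.5% and 30.6%. Of genes within 5 kb of any autosomal peak, 32.6% were higher and 30.4% lower, and of genes within 5 kb of an EpiSC-only peak 23.4% of 47 and 29.8%. The higher share within 5 kb was 35.1% when genes with low counts were kept, where that of all genes was 22.5%, and 40.3% to 44.2% with 1 library left out. These shares are descriptions, and no test of the difference between them was made.

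**Figure D4:**
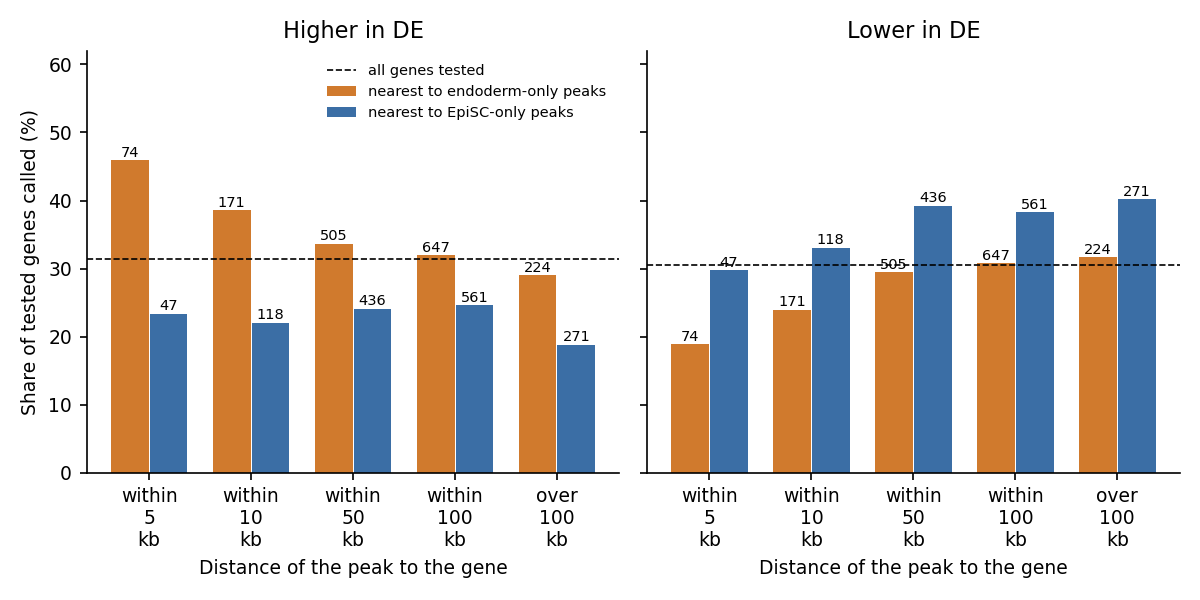
Share of tested genes (%) called higher (left) or lower (right) in DE by RNA, for genes nearest to endoderm-only and EpiSC-only peaks within the given distance; small numbers are the genes tested and dashed lines the shares over all 14085 genes. For endoderm-only peaks the higher share is 45.9% within 5 kb and 29.0% over 100 kb, where all genes have 31.5%. For all autosomal peaks, which are not drawn, it is 32.6% within 5 kb and 23.8% over 100 kb.

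The genes within 5 kb that rose were of many kinds. They are named here by their values. Sgk1, a kinase induced by growth factors and steroid hormones, has a peak inside it 0.932 kb from its start and averaged 676 CPM in DE against 43.0 in EpiSCs (log2 change 3.98 ± 0.25, SE). Asb4, a subunit of a ubiquitin ligase, has a peak 2.82 kb from its start with 8.43, 7.33, 7.19 and 6.40 CPM. Its RNA stood at 259, 269, 325 and 80.8 CPM in DE and 1.11 to 8.50 CPM in EpiSCs (log2 change 5.64 ± 0.70, SE, adjusted p = 6.74e-05). DE 51 was the lowest of the DE libraries and still lay above every EpiSC library. Bmp7, a signalling protein of the BMP family, rose by 3.32 ± 0.55 (SE) on the log2 scale. Eya2, a transcriptional coactivator, rose by 4.96 ± 0.64, and Perp, a protein of desmosomes, by 2.45 ± 0.28. For Bmp7, Eya2 and Perp no start was given, and their peaks lie 4.94, 3.33 and 2.16 kb from the closer gene end. How far these peaks lie from the starts is therefore not known here. Pilrb1 and Pilrb2, paired immune receptors, and Srgn, the core protein of a granule proteoglycan, also rose, from means under 0.1 CPM in EpiSCs. Pilrb1 and Pilrb2 are similar genes, and reads may have been split between them. Among the 14 that fell were Odc1, the first enzyme of polyamine synthesis (log2 change -0.84 ± 0.12, SE), Tnrc6b, a protein of miRNA silencing (-2.32 ± 0.14), Ctnnd1, a catenin that stabilises cadherins (-1.44 ± 0.22), and Ahctf1, a nuclear pore protein (-1.54 ± 0.16).

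Endoderm genes fixed in 6 lists were often neighbours of these peaks. The lists hold 86 genes, counted once each, and 21 were nearest to an endoderm-only peak while 4 were nearest to an EpiSC-only peak. Among the 80 list genes tested on autosomes, 26.2% had such a peak, against 6.59% of all 12807 autosomal protein-coding genes tested. Of the 21 genes, 14 rose, 4 fell and 3 did not pass the test, against 31.5% higher and 30.6% lower over all genes tested. Together the 21 had a median log2 change of 2.40. List genes also rose without a peak of the set: 15 of 15 endoderm transcription factors tested rose, and 4 of them had one. The lists were written with earlier results of these data known, so their direction is not independent evidence. Gene spacing was not matched.

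**Figure D5:**
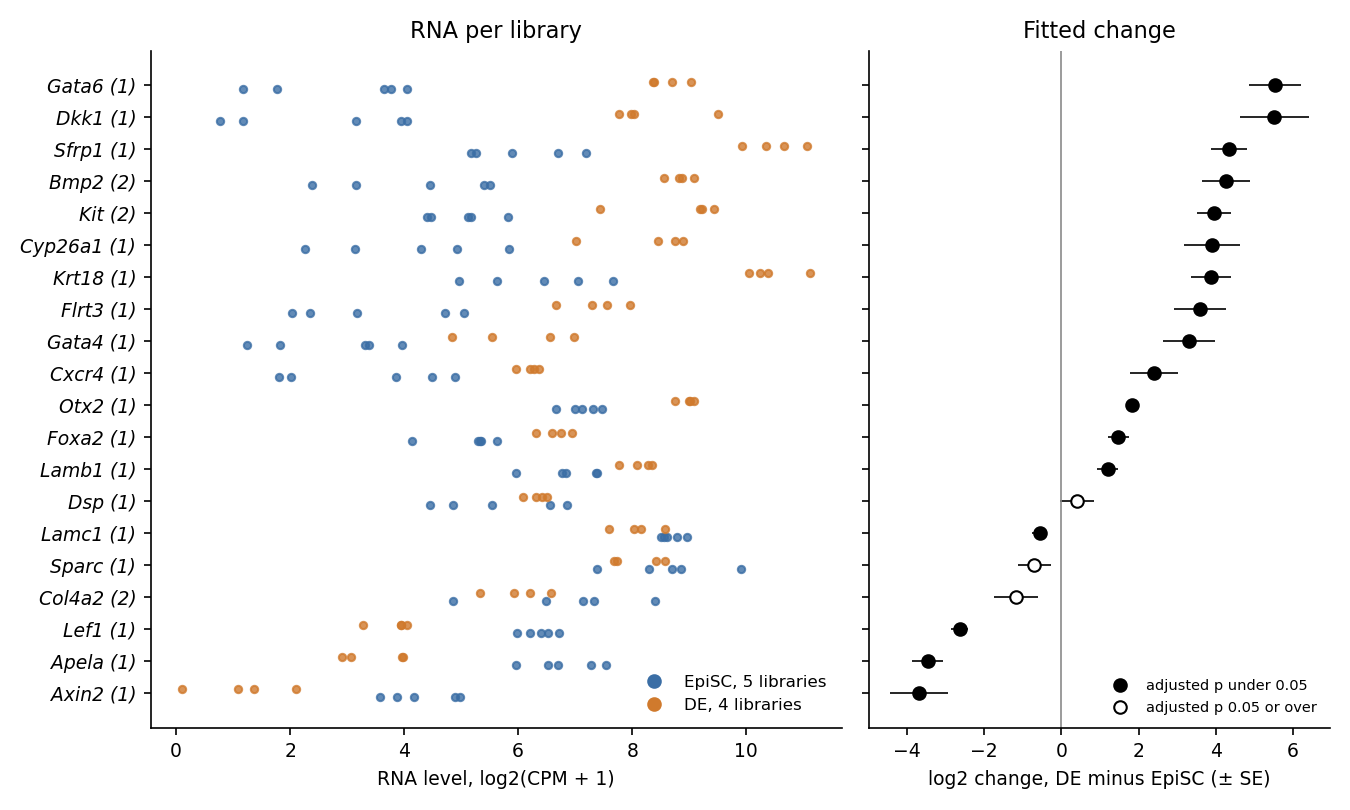
RNA of list genes nearest to an endoderm-only peak, with the number of such peaks in brackets: left, log2(CPM + 1) in each library; right, fitted log2 change of DE minus EpiSC with its SE. Changes run from -3.69 (Axin2) to 5.53 (Gata6); open circles are the 3 genes that did not pass the test.

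Of 15 endoderm transcription factors tested, 15 were higher in DE, against 31.5% of all genes tested. Of the 19 listed, 4 had a peak of the set. Gata6, a GATA factor needed for endoderm, has a peak at chr18:10958639-10958806, 93.8 kb from its closer end, with 4.12, 6.50, 3.66 and 5.60 CPM. Its RNA was 334, 416, 522 and 330 CPM in DE against 15.5, 2.40, 12.6, 11.5 and 1.26 CPM in EpiSC 1, 2, 4, 44 and 51 (log2 change 5.53 ± 0.69, SE, adjusted p = 6.59e-05). The groups did not overlap. Gata4, its close relative, has a peak inside it at chr14:63231204-63231470, with 5.43, 4.43, 9.08 and 2.67 CPM. Its RNA was 45.8, 92.7, 125 and 27.5 CPM in DE 2, 4, 44 and 51, and the lowest DE library lay above the highest EpiSC library at 14.7 CPM (log2 change 3.30 ± 0.67, SE). Foxa2, a FOX factor of endoderm and midline, has its peak 288 kb from its start, at chr2:147757338-147757451, with 2.63 to 3.53 CPM. Foxa2 RNA was already 16.6 to 48.6 CPM in EpiSCs and 78.7 to 123 CPM in DE (log2 change 1.47 ± 0.27, SE). Otx2, a factor of epiblast, anterior endoderm and forebrain, has a peak at chr14:48629491-48629622, 33.2 kb from its start, with 2.06 to 4.29 CPM. Its RNA rose from 140 ± 29.2 CPM (SD, n = 5) to 499 ± 47.1 CPM (SD, n = 4), a log2 change of 1.83 ± 0.17 (SE). Sox17, the endoderm SOX factor, rose by 7.80 ± 0.80 (SE) and had no peak of the set.

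Of 23 secreted and surface proteins tested, 18 were higher and 2 lower, against 31.5% and 30.6% of all genes tested. Of the 23, 8 had a peak of the set. Cxcr4, the chemokine receptor on which DE cells were sorted, has a peak at chr1:128549861-128550072, 42.3 kb from its start, with 8.99, 6.78, 10.7 and 12.3 CPM, among the stronger ones. Its RNA stood at 61.2 to 81.2 CPM in DE and 2.51 to 28.6 CPM in EpiSCs, and the sort used this protein. Kit, a receptor tyrosine kinase, has peaks 70.0 and 171 kb from its start with means of 3.10 and 5.94 CPM. Kit RNA was 173 CPM in DE 2 and 584 to 693 CPM in DE 4, 44 and 51, all above the EpiSC libraries at 20.2 to 55.7 CPM (log2 change 3.95 ± 0.44, SE). Bmp2, another BMP ligand, has peaks at chr2:133382480-133382623 and chr2:133591430-133591513, 170 and 28.6 kb from its closer end, with means of 3.69 and 3.33 CPM. Its RNA rose to 374 to 539 CPM from 4.21 to 44.6 CPM (log2 change 4.27 ± 0.63, SE). Flrt3, an adhesion protein of the foregut endoderm, rose by 3.58 ± 0.68 (SE), and its peak lies inside Macrod2, 368 kb away. Cyp26a1, which breaks down retinoic acid, has one of the stronger peaks, at chr19:37860349-37860531, 163 kb from its start, with 11.1, 10.1, 8.20 and 6.40 CPM. Cyp26a1 RNA was 473, 349, 432 and 128 CPM in DE 2, 4, 44 and 51, and 3.81 to 56.0 CPM in EpiSCs. The order of the DE libraries differed between both assays, and the RNA groups did not overlap (log2 change 3.90 ± 0.72, SE). Apela, a peptide ligand of the apelin receptor, fell by 3.46 ± 0.40 (SE) on the log2 scale although its peak at chr8:65084581-65084695 had 2.67 to 6.56 CPM, and it is also nearest to an EpiSC-only peak.

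Of 12 Wnt antagonists and targets, 6 were higher and 2 lower, against 31.5% and 30.6% of all genes tested. The 4 with a peak of the set went both ways. The secreted antagonists Dkk1 and Sfrp1 rose. Dkk1 RNA was 725 CPM in DE 2 and 217 to 260 CPM in the other DE libraries, above 0.702 to 15.6 CPM in EpiSCs (log2 change 5.51 ± 0.89, SE). Sfrp1 RNA was 975 to 2152 CPM in DE and 35.0 to 144 CPM in EpiSCs (log2 change 4.33 ± 0.47, SE). Their peaks were small, at 3.40 CPM for Dkk1 (chr19:30443862-30443953) and 2.46 CPM for Sfrp1 (chr8:23504135-23504208). They lie 106 kb from the start of Dkk1 and 54.5 kb from the closer end of Sfrp1. Axin2, a Wnt target that feeds back on the pathway, fell by 3.69 ± 0.75 (SE) on the log2 scale, and Lef1, a transcription factor that carries Wnt signals, fell by 2.64 ± 0.23 (SE). Both have peaks of ordinary height, 4.81 CPM at chr11:108870129-108870297 and 4.05 CPM at chr3:130992192-130992354. These lie 50.1 and 118 kb from the starts of Axin2 and Lef1.

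In the Nodal and Activin pathway 8 of 15 genes tested were higher and 4 lower, where the background is 31.5% higher and 30.6% lower. Of 13 simple epithelium genes, 4 were higher and 2 lower, a higher share near that background. Krt18, a keratin of simple epithelia, has a strong peak at chr15:102040382-102040573, 12.3 kb from its start, with 7.31, 8.99, 6.18 and 10.7 CPM. Krt18 RNA was 1063 to 2230 CPM in DE and 30.0 to 203 CPM in EpiSCs (log2 change 3.87 ± 0.52, SE). Dsp, a desmosome protein, did not pass the test (log2 change 0.40 ± 0.45, SE, adjusted p = 0.457).

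Basement membrane genes went the other way, with 1 of 11 higher and 6 lower, against 31.5% and 30.6% of all genes tested. Of the 11, 4 had peaks of the set. Lamb1, a laminin chain with a peak 88.5 kb from its start, rose by 1.20 ± 0.27 (SE). Lamc1, its partner chain, fell by 0.56 ± 0.20 (SE, adjusted p = 0.0274) on the log2 scale, with groups that overlap, and without EpiSC 4, EpiSC 44, DE 44 or DE 51 it no longer passed (-0.49 to -0.57). Col4a2, nearest to the highest peak of the whole set, had 39.2, 59.8, 72.5 and 93.9 CPM of RNA in DE 2, 4, 44 and 51 and 27.9, 140, 88.7, 161 and 335 CPM in EpiSC 1, 2, 4, 44 and 51. These overlap, and the change did not pass the test (log2 change -1.18 ± 0.56, SE, adjusted p = 0.0904). It passed without EpiSC 1 (-1.45), in DESeq2 (-1.23) and with the replicate number as a block (-1.35). Col4a1, which holds that peak, had a log2 change of -0.18 ± 0.47 (SE, adjusted p = 0.760), and its sign turned without EpiSC 51 (0.27) or DE 2 (0.027). Sparc, a matrix protein, had -0.70 ± 0.43 (SE, adjusted p = 0.180). The summed level of the 12 feeder fibroblast genes was 87.7, 1157, 431, 1081 and 2760 CPM in the same 5 EpiSC libraries and 279, 100.03, 96.1 and 95.9 CPM in DE 2, 4, 44 and 51, with no marker of the list at 0 in all libraries. Among EpiSCs it is lowest in EpiSC 1 and highest in EpiSC 51, like Col4a2 and Sparc, and its part in these values was not tested.

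Few markers of other cell types neighboured a peak of the set. No feeder fibroblast gene (of 12) and no visceral endoderm gene (of 11) was nearest to one. The share over all autosomal protein-coding genes tested was 6.59%, so none in lists this short is near that background. Of 12 mesoderm genes 8 were tested, and 2 were higher and 3 lower, against 31.5% and 30.6% of all genes tested. The 12 had a summed level of 66.3 to 98.0 CPM in DE and 158 to 582 CPM in EpiSCs. Pdgfra, a receptor tyrosine kinase, was the one with a peak of the set, and it rose from 7.24 ± 3.99 CPM (SD, n = 5) to 48.6 ± 15.8 CPM (SD, n = 4). Among 8 blood and endothelium genes, Runx1 and Cdh5 had 4 peaks of the set between them. Cdh5, the cadherin of endothelial cells, did not pass the filter on low counts. Runx1, a blood transcription factor, had 3 of the peaks, and its RNA rose from 11.5 ± 3.54 CPM (SD, n = 5) to 56.9 ± 16.0 CPM (SD, n = 4), a log2 change of 2.30 ± 0.28 (SE). Of the list's genes 4 were tested, and 2 were higher and 1 lower, against 31.5% and 30.6% of all genes tested. The list's summed level was 49.2 to 114 CPM in DE and 8.61 to 18.3 CPM in EpiSCs, with the embryonic globin Hbb-bh1 at 0 in every library. Runx1 alone, at 37.6 to 75.1 CPM in DE and 6.70 to 15.4 CPM in EpiSCs, made up most of that sum in every library. Pax6, a neural factor with a peak 11.6 kb away, had a log2 change of -1.96 ± 0.89 (SE, adjusted p = 0.0787) and passed the test without EpiSC 4 (-2.26).

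The RNA of genes with several peaks of the set went both ways. Of the 1089 nearest genes, 967 had 1 peak, 102 had 2, 17 had 3 and 3 had 4. Of the 98 tested with at least 2 peaks, 37 (37.8%) were higher and 25 (25.5%) lower, against 31.5% and 30.6% of all genes. Gadl1, Cdh13 and Zfhx3 had 4 each. Gadl1 was low, at 1.34 to 2.54 CPM in DE and 0 to 0.493 CPM in EpiSCs (log2 change 3.45 ± 0.80, SE), and one of its peaks (chr9:115910515-115910698) lies 1.15 kb from its start. Cdh13, a cadherin without a transmembrane part, had 8.80, 13.6, 21.3 and 27.3 CPM of RNA in DE and 2.64 to 3.95 CPM in EpiSCs (log2 change 2.501 ± 0.33, SE). Its strongest peak, at chr8:118365859-118365978, had 3.37, 5.12, 6.94 and 11.2 CPM of ATAC-seq in DE 2, 4, 44 and 51, and another, at chr8:118303070-118303215, had 3.75, 3.597, 3.15 and 2.13 CPM. The first was highest in DE 51 and the second lowest there. Zfhx3, a homeobox and zinc finger factor, did not pass the test (log2 change -0.45 ± 0.29, SE, adjusted p = 0.204), except without DE 51 (-0.82). Both Zfhx3 and Cdh13 lie on chromosome 8.

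Among the genes with 3 peaks, Sox4, a SOX factor, rose from 130 ± 35.6 to 320 ± 63.5 CPM (log2 change 1.30 ± 0.21, SE), and its peaks lie 13.2, 110 and 228 kb from its start. Efna5, an ephrin ligand, rose by 0.91 ± 0.25 (SE). Ermard rose by 0.54 ± 0.20 (SE, adjusted p = 0.0342), a call lost under 10 of the alternatives tried, among them those without EpiSC 2, 4, 44 or 51 or without DE 44 (0.38 to 0.56). Irs1, an adaptor of the insulin receptor, fell by 3.004 ± 0.87 (SE, adjusted p = 0.0121) on the log2 scale, although a peak 370 kb from its start had 7.31, 7.61, 7.44 and 7.46 CPM, nearly the same level in all 4 DE libraries. Auts2, with 3 endoderm-only and 3 EpiSC-only peaks, had a log2 change of -0.09 ± 0.16 (SE, adjusted p = 0.670). Kirrel3 (-0.44 ± 0.99, adjusted p = 0.719), Prkca (-0.47 ± 0.32, adjusted p = 0.225) and Rbfox1 (-2.44 ± 1.00, adjusted p = 0.0551) did not pass the test either, though Rbfox1 did without DE 51 (-3.62), and the sign of Kirrel3 turned without EpiSC 4 (0.38).

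The largest changes among neighbours with at least moderate RNA went in both directions. Besides Gata6, Dkk1 and Asb4, the largest rises were in Col23a1 and Gm5771. Col23a1, a transmembrane collagen, had 72.0 to 200 CPM in DE and 1.14 to 1.88 CPM in EpiSCs (log2 change 6.64 ± 0.34, SE), and its peak at chr11:51356112-51356272 lies inside it. Gm5771, a gene model, had 11.2 to 47.9 CPM in DE and at most 0.152 CPM in EpiSCs, so its fold rests on a few reads there. Its trypsinogen-like neighbours are similar in sequence, and reads may have been split among them. Among the largest falls were Pcdh1, Sox2, Zfp462 and Nectin1. Sox2, a pluripotency factor, fell by 6.21 ± 0.87 (SE) on the log2 scale, from 65.4 ± 27.5 CPM (SD, n = 5) to 0.969 ± 1.20 CPM (SD, n = 4), and its peak at chr3:35106268-35106449 lies 456 kb from its start. Pcdh1, a protocadherin, fell by 6.70 ± 0.51, and its peak at chr18:38134282-38134425 lies 51.6 kb from its closer end. Zfp462, a zinc finger protein, fell by 5.56 ± 0.23, and Nectin1, an adhesion protein, by 5.17 ± 0.41. Sox2 and Zfp462 are also each nearest to 1 EpiSC-only peak, and so are Efna5, Lamb1 and Runx1, which rose. Sparc and Kirrel3 have 1 such peak each and Rbfox1 has 2, and these genes did not pass the test.

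EpiSCs of other strains gave few values for the set, since a second deposited peak table, which counts EpiSC libraries of several strains, holds few of its regions. Of the 1234 peaks, 45 (3.65%, exact 95% binomial interval 2.67% to 4.85%) shared at least 1 base with a peak of that table, against 75.8% of all autosomal peaks and 100% of the EpiSC-only peaks. That table also counts the C57BL/6 EpiSC libraries that chose the peaks. These shares therefore follow largely from the choice and are not a result about strains. In those 45 the median was 0.351 CPM in PWK BioRep698, 0.119 CPM in the PWK library without a number in its column name and 0.299 CPM in DBA. For EpiSC-only peaks the medians were 2.81, 6.56 and 2.10 CPM. At least 2 CPM was reached by 2 of the 45 in PWK BioRep698 and by 0 in the other 2 libraries, and 20 (44.4%) were at most 0.5 CPM in all 3. Strains were not tested against each other here, because the C57BL/6 libraries had chosen the peaks.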

How the data were processed

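ATAC-seq and RNA-seq of C57BL/6 EpiSCs and DE were grouped by the labels. The deposited tables hold raw counts made by the authors, per peak (1 set of peaks for all libraries of a table, per the file headers) and per Ensembl gene. The submitters' processing notes name fastp, Bowtie2, MACS2, featureCounts and DESeq2 for ATAC-seq, Salmon, featureCounts and DESeq2 for RNA-seq, and build mm10, with no versions or roles. Whether peak starts count from 0 or 1 and whether RNA counting used strand are not given in the sources used here. Of the second peak table, 17 columns belong to no sample here and were not used.

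ATAC-seq CPM used the column sum, mitochondrial peaks included. RNA was tested with edgeR 4.0.16 (R 4.3.3; TMM, filterByExpr, robust quasi-likelihood, Benjamini-Hochberg adjustment over 14085 genes, threshold 0.05), on 5 EpiSC and 4 DE libraries, and RNA CPM are on the TMM scale. On simulated counts for 14085 genes, of which 200 were changed, 70% of genes changed 2-fold and 100% of those changed 4-fold were recovered. Among unchanged genes 8 were called. The simulation gave every gene the same dispersion, so these shares are not the power of the test on the real counts. No pair of RNA replicates agreed within sampling noise. Neighbours are protein-coding RefSeq genes (GRCm38.p6): 26444 of 29555 identifiers matched 1 gene, 20723 of these protein-coding, 16648 with a start and the others placed by their ends. Scripts used Python 3.11.15 with pandas 2.3.3 and scipy 1.17.1. Peaks in full are the 6 highest, the 4 lowest, the 4 nearest outside and those by list genes. Genes in full are the 12 with most peaks, list genes, and the 5 largest rises and 5 largest falls with a mean log2 CPM of at least 3 and no overlap. Pilrb1, Sgk1 and the other genes within 5 kb, Krt42, Hpn, Col4a1, Pou5f1, Sox17, Runx1, Pdgfra and Pax6 were chosen after their values were seen. The peaks, lists and limits were chosen with earlier results of these data known. Alternatives changed the limits, scaling, filter, test, neighbour rule, replicate block and libraries. The PWK DE samples were not analysed here. A few genes that these rules name are not reported here.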

Additional observations from a re-analysis of the deposited data

Results flagged for a closer look

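Of 178 groups of 4 or 5 libraries checked, 10 had 1 library far from the others, close to the 1 in 20 that chance flags. Dkk1 RNA was 725 CPM in DE 2 against 217 to 260 CPM in the other DE libraries. Pou5f1 RNA was 37.8 CPM in DE 2 against 2.46 to 6.34 CPM. The other 8 are ATAC-seq levels of single peaks in DE. The Ubac1 peak had 9.18 CPM in DE 2 against 11.7 to 12.1 CPM. The first Bmp2 peak had 2.08 CPM in DE 4 against 4.12 to 4.29 CPM, and the Sox2 peak had 6.36 CPM in DE 4 against 2.998 to 3.28 CPM. DE 44 stood high at a Cdh13 peak (4.42 CPM against 2.08 to 2.44), at an Rbfox1 peak (10.6 CPM against 2.81 to 4.01) and at the Pcdh1 peak (5.55 CPM against 2.08 to 2.67). DE 51 stood high at a Prkca peak (4.26 CPM against 2.06 to 2.40) and low at the Nectin1 peak (2.13 CPM against 3.53 to 3.74).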

How the results depend on the processing

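The number of peaks depended most on the limits: 37 at 3 and 0.25 CPM, 3852 at 1.5 and 0.75 CPM, 811 (724 of them in the set of 1234) without mitochondrial peaks in the sum and 1374 on the TMM scale. Leaving out 1 library gave 1304 to 3290, the latter without EpiSC replicate 4. The nearest genes called higher and lower were then 10 and 8 at the stricter limits, 659 and 718 at the looser, and 188 and 163 without mitochondrial peaks. They were 170 and 149 within 50 kb, 66 and 41 within 10 kb, 34 and 14 within 5 kb and 37 and 25 for genes with at least 2 peaks, since fewer genes enter. The 5 kb limit, all gene types (231 and 224) and no chromosome 8 (240 and 249) were added after seeing the data. Other scalings, filters and DESeq2 1.42.0 kept both counts within 1.5 times, and 1 library left out gave 242 to 271 higher and 242 to 273 lower. With total library size as the scale, the median of all genes moved to -0.10. Overlap with the second table was 1.86% at 0.5 of the width. Within 2.5 kb of a start, or of a gene end where no start is given, lay 3.40% of the peaks.

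With the replicate number as a block, 238 nearest genes were higher and 261 lower, against 255 and 249 in the same libraries without the block. After the mean of each cell type was subtracted, the deviations of same-numbered EpiSC and DE libraries correlated at 0.187, 0.151, 0.141 and 0.0663. Each was highest with its own number, a hint from the data that the labels do not give. Among named genes the sign changed only for 3 that the test did not call. Kirrel3 was at 0.55 with the block and -0.86 to 0.38 with a library left out, and Col4a1 was at -0.42 to 0.27 with a library left out. Hpn was at -1.17 with the block, -0.019 with total library size and -1.03 to 0.59 with a library left out. Ermard lost its call in 10 settings and Lamc1 in 4, while Col4a2 gained one in 4, Rbfox1 in 3, Pax6 in 2 and Zfhx3 in 1. Motif shares in 200 or 100 bases around peak centres were not run, since no genome was used here. Depth limits the EpiSC side, where 3 reads equal 0.322 to 0.749 CPM.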
